A study of Mus musculus with 2 samples.

Results

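The miR-15/16 family is a group of microRNA (miRNA) genes whose main products begin with nearly the same bases, and 8 mouse genes of it, Mir15a, Mir16-1, Mir15b, Mir16-2, Mir195a, Mir497, Mir322 and Mir503, were described among the 2202 miRNA genes of the deposited tables. They were found by their GENCODE M21 gene names, and all 8 had a row in both tables. The samples were 2 libraries of small RNA, made from tissue labelled layer of hippocampus of 25-day-old male mice of the B6CASTF1/J strain, a cross of C57BL/6J with CAST/EiJ. Neither a treatment nor a mutant allele is named, and the libraries are biological replicates 1 and 2 of a single group with separate biosample entries and 1 donor entry in common. The spread between them may thus be partly technical. The reads credited to miRNA genes on the gene's strand numbered 5183641 (replicate 1) and 5871233 (replicate 2), and levels are given as counts per 1000000 of these (CPM). Counting error alone lets a gene with a count of 0 reach 0.579 CPM and 0.511 CPM.

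A miRNA is cut from a hairpin in a longer transcript, and 1 or both arms of the hairpin, named 5p and 3p, are loaded onto an Argonaute protein. Bases 2 to 8 of the loaded strand, the seed, do most of the pairing with target messenger RNAs. The miR-15/16 family is best known for lowering cyclins of the D and E types, cyclin-dependent kinases and the survival protein BCL2, and so for holding cells back from dividing. Its founding pair was found at a locus often deleted in chronic lymphocytic leukaemia, and miR-195 is known for its rise in heart muscle after birth, when these cells stop dividing. Genes of the family lie in pairs, each pair cut from a shared transcript.

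The main products are shown first because the seed defines the family and because 1 of these sequences is made by both Mir16-1 and Mir16-2. The sequences are RefSeq mature sequences on GRCm38.p6, the assembly of the mm10 tables, and were found for all 8 genes. The seed is in capitals.
miR-15a-5p: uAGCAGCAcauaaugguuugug
miR-15b-5p: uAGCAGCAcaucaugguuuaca
miR-16-5p: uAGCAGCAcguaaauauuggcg
miR-195a-5p: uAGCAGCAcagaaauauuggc
miR-497a-5p: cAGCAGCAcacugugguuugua
miR-322-5p: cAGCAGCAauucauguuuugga
miR-503-5p: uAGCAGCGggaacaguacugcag

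Of the 8 genes, 7 carried the seed AGCAGCA, which pairs with the site UGCUGCU. Mir503 carried AGCAGCG, which pairs with CGCUGCU, and differed from miR-15a-5p inside the seed by A8G (positions counted from 1 at the 5′ end, the base of miR-15a-5p first). Outside the seed the closest pair was miR-16-5p and miR-195a-5p, with 19 of 21 bases equal when aligned at their 5′ ends and the differences G10A and U11G (the base of miR-16-5p first). Between miR-15a-5p and miR-15b-5p 18 of 22 bases were equal, with the differences A12C, G20A, U21C and G22A (the base of miR-15a-5p first). The least alike were miR-497a-5p and miR-503-5p, with 10 of 22 bases equal. In the RefSeq table of 1058 miRNA genes the seed AGCAGCA was found in 4 further genes, Mir195b, Mir6342, Mir6353 and Mir6419, and AGCAGCG in no gene other than Mir503.

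The hairpins of Mir16-1 and Mir16-2 are shown because the identity of their main product decides which reads can be assigned to either gene. The 23 bases that both hairpins hold are in capitals and contain the whole of miR-16-5p.
Mir16-1, chr14:61631880-61631972, minus strand: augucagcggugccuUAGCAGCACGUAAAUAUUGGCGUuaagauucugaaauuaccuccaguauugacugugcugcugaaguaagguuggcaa
Mir16-2, chr3:69009902-69009996, plus strand: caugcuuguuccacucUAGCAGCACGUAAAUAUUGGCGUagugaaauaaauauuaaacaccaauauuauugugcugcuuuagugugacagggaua

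The 3p arms of these genes, miR-16-1-3p (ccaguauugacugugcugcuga) and miR-16-2-3p (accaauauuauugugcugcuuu), had 12 of 22 bases equal. For every other arm of the 8 genes, the longest stretch found in the hairpin of a miRNA gene at another place, on either strand, was 16 bases or shorter. The longest of these was that of miR-195a-5p with Mir195b. The search had hairpins for 7 of the 8 members and left out that of Mir15a. Reads aligned to several places stand in a row of their own in the tables, 6059074 in replicate 1 (43.6% of reads) and 6908203 in replicate 2 (43.2%), and are credited to no gene. A read that lies wholly within the shared 23 bases matches both Mir16 hairpins equally. How many of the reads aligned to several places were miR-16-5p cannot be read from these tables, nor can the counts be divided between the 5p and 3p arms of a gene. All levels cover only the reads assigned to 1 place. Those of Mir16-1 and Mir16-2, and sums that include them, leave out reads within the shared 23 bases. Matches of the arms to places outside miRNA hairpins were not searched.

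All 8 genes were detected (10 counts or more in each library), where 20.2% of the 2202 genes were. Together they took 0.288% of the gene-assigned counts in replicate 1 (exact Clopper-Pearson 95% interval 0.283 to 0.292, counting error only) and 0.423% in replicate 2 (0.418 to 0.428), a mean of 0.355% ± 0.0957 (SD, n = 2). The family was thus a minor part of the assigned miRNA, and its share differed between the libraries by 1.47-fold. The difference depends on the scaling: with trimmed mean of M-values scaling the share was 0.305% in replicate 1 and 0.398% in replicate 2. In bulk tissue, fewer cells of a type and less RNA per cell cannot be told apart. The mean level was above the median detected gene (51.2 CPM over 445 genes) for 7 of the 8 members, all but Mir503. A sequenced read can cover a mature miRNA in full, so counts were not divided by gene length when genes were compared. Differences in cloning efficiency between sequences are not corrected.

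Mir195a and Mir497 lie 241 bases apart on the plus strand of chromosome 11, and carried the largest part of the family's assigned counts. Mir195a (ENSMUSG00000065411.2, chromosome 11 from 70235042 to 70235135 of mm10) had 3390 counts or 654 CPM in replicate 1 and 8197 counts or 1396 CPM in replicate 2, a mean of 1025 ± 525 CPM (SD, n = 2). Mir497 (ENSMUSG00000105220.1, chromosome 11 from 70234717 to 70234800) had 756 CPM in replicate 1 and 993 CPM in replicate 2, a mean of 875 ± 167 CPM. Neither gene lies inside a longer gene of its own strand in GENCODE M21. Mir195a was the lower of the pair in replicate 1 and the higher in replicate 2. Among all genes they ranked 105 and 109 by mean CPM. The pair made up 49.1% of the family's assigned counts in replicate 1 and 56.5% in replicate 2. Reads that match both Mir16 hairpins are missing from this total, so which pair gives most mature miRNA cannot be read from it.

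Mir322 and Mir503, 200 bases apart on the minus strand of the X chromosome are a pair known for slowing division in differentiating muscle. In RefSeq they lie within the long noncoding gene C430049B03Rik, whereas GENCODE M21 gives them no host. Mir322 (ENSMUSG00000065418.1, from 53054255 to 53054349) had 707 CPM in replicate 1 and 770 CPM in replicate 2, a mean of 739 ± 44.0 CPM (SD, n = 2). This was the smallest relative spread in the family, 5.96% of the mean. Mir503 (ENSMUSG00000076122.1, from 53053984 to 53054054), the gene with the deviating seed, had 103 counts or 19.9 CPM in replicate 1 and 159 counts or 27.1 CPM in replicate 2. Its mean of 23.5 ± 5.10 CPM was the lowest of the 8 members. The pair took 25.3% of the family's counts in replicate 1 and 18.8% in replicate 2.

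Mir15b and Mir16-2 lie 66 bases apart in an intron of Smc4, which encodes a subunit of the condensin complex that compacts chromosomes for division, on the plus strand of chromosome 3. Mir15b (ENSMUSG00000065580.2, from 69009772 to 69009835) had 1374 counts or 265 CPM in replicate 1 and 2643 counts or 450 CPM in replicate 2, a mean of 358 ± 131 CPM (SD, n = 2). Mir16-2 (ENSMUSG00000065606.1, from 69009902 to 69009996) had 370 counts or 71.4 CPM in replicate 1 and 247 counts or 42.1 CPM in replicate 2, a mean of 56.7 ± 20.7 CPM. The members of this pair thus stood higher in opposite libraries. Together they took 11.7% of the family's counts in replicate 1 and 11.6% in replicate 2.

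Mir15a and Mir16-1 lie 54 bases apart within Dleu2, a long noncoding gene on the minus strand of chromosome 14 and the founding locus of the family. Mir15a (ENSMUSG00000093007.1, from 61632027 to 61632110) is intronic in GENCODE M21, while 13 bases of Mir16-1 (ENSMUSG00000092995.1, from 61631880 to 61631972) overlap an exon of 1 Dleu2 transcript. Mir15a had 250 CPM in replicate 1 and 360 CPM in replicate 2, a mean of 305 ± 77.8 CPM (SD, n = 2). Mir16-1 had 151 CPM in replicate 1 and 191 CPM in replicate 2, a mean of 171 ± 27.9 CPM. Both stood higher in replicate 2, and the pair took 14.0% of the family's counts in replicate 1 and 13.0% in replicate 2.

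**Figure D1:**
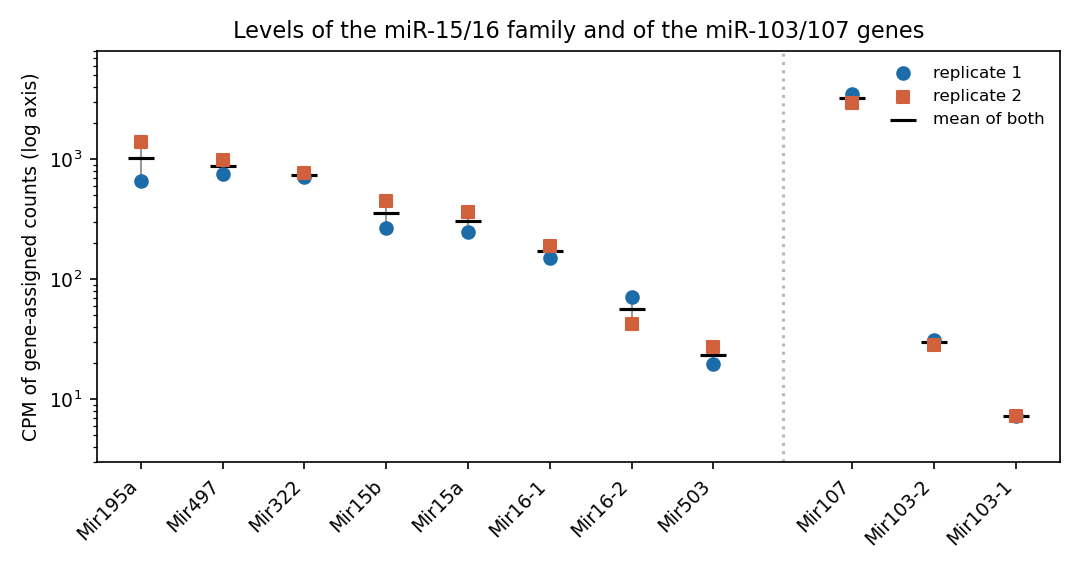
CPM on a log axis of the 8 family members, ordered by mean, and of the Mir103 and Mir107 genes right of the dotted line, in replicate 1 (circles) and replicate 2 (squares), with the mean of both as a bar. Mir195a, Mir497 and Mir322 lie between 654 and 1396 CPM and Mir503 at 19.9 and 27.1 CPM, and Mir16-2 is the only member that is higher in replicate 1. All levels are of reads assigned to 1 place only.

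By mean level the order was Mir195a, Mir497, Mir322, Mir15b, Mir15a, Mir16-1, Mir16-2 and Mir503, over a range of 38.1-fold in replicate 1 and 51.6-fold in replicate 2. Of the 7 pairs of neighbours in this order, 6 stood in the same order within both libraries, all but Mir195a and Mir497. In 3 pairs the values of the neighbours overlapped across the libraries, namely Mir195a with Mir497, Mir497 with Mir322 and Mir15b with Mir15a. The gap from Mir195a to Mir497 was 151 ± 357 CPM (SD of the gap, n = 2), smaller than its spread. Mir15b exceeded Mir15a by 52.8 ± 53.1 CPM, no more than its spread. The gap below Mir322 was 381 ± 86.9 CPM and separated the leading 3 genes from the rest in both libraries. No test between genes was run, and the order is a description of reads assigned to 1 place. Reads that match both Mir16 hairpins are left out, so it is not an order of the mature miRNAs.

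How did the members differ between the libraries? By an exact binomial test of the counts against the libraries' totals, with Benjamini-Hochberg adjustment over the 472 genes whose counts averaged 10 or more, 8 of 8 members differed at an adjusted p below 0.05, where 59.7% of all genes tested did. Higher in replicate 2 were 7 members, against 39.4% of all genes, and higher in replicate 1 was 1, against 20.3%. The members are deeply counted, and of the 291 genes whose counts averaged 100 or more, as those of all 8 did, 83.2% were called. This test compares 2 libraries over read sampling only and does not show a difference beyond the spread between mice. The median log2 ratio of replicate 2 over replicate 1, on the log2(CPM + 1) scale, was 0.41 for the members and 0.16 for all 472 genes. The median absolute log2 ratio was 0.48 for the members and 0.36 for all genes, and 6 of the 8 members lay above the latter.

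**Figure D2:**
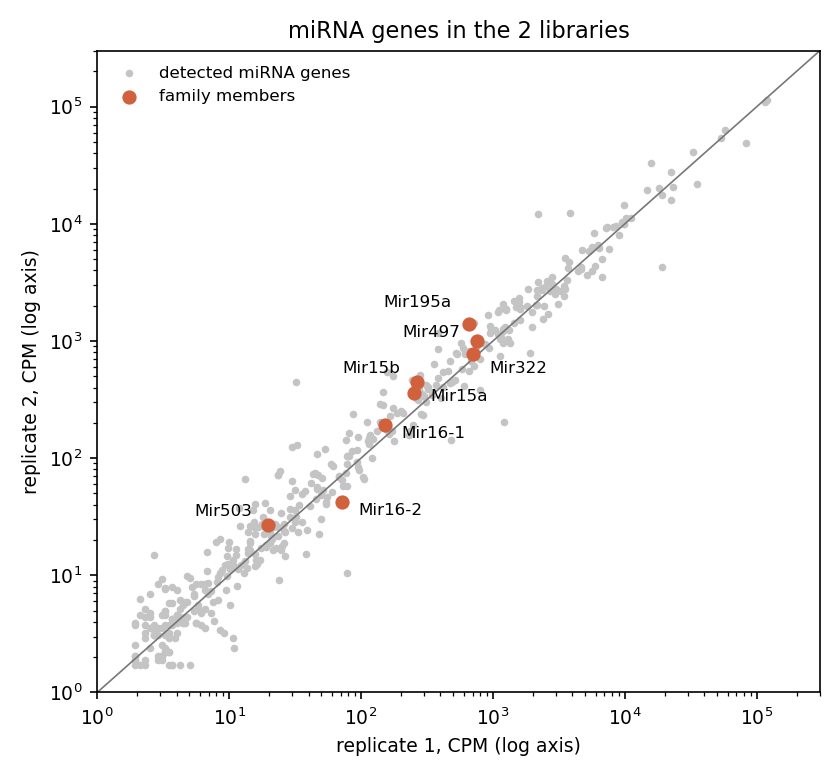
CPM in replicate 1 against CPM in replicate 2, both on log axes, for the 445 detected miRNA genes (grey) and the 8 members (orange), with the line of equal CPM. All members but Mir16-2 lie above the line, and Mir195a, at 654 and 1396 CPM, lies farthest from it.

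Differences of at least 1.5-fold were seen in 3 members. Mir195a stood 2.13-fold higher in replicate 2, with an exact 95% interval from the counts of 2.05 to 2.22. Mir15b was 1.70-fold higher there (1.59 to 1.81), and Mir16-2 was 1.70-fold higher in replicate 1 (1.44 to 2.00). Of all genes tested, 17.2% were called at 1.5-fold or more higher in replicate 2 and 7.63% in replicate 1. By the size of its absolute log2 ratio, Mir195a exceeded 89.0% of the genes tested, Mir15b 80.5% and Mir16-2 79.7%.

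The other 5 members differed less. Mir15a was 1.44-fold higher in replicate 2 (1.34 to 1.54), Mir497 1.31-fold (1.26 to 1.37) and Mir16-1 1.26-fold (1.15 to 1.38). Mir503 was 1.36-fold higher (1.06 to 1.76), with an exact binomial adjusted p of 0.0277. Mir322 was 1.09-fold higher (1.04 to 1.14) under scaling to the gene-assigned total, but its log2 ratio was -0.0495 under trimmed mean of M-values (TMM) scaling and -0.0535 with DESeq2 size factors. TMM moves the log2 CPM ratio of every gene, taken without a pseudocount, by -0.17, and under it and under DESeq2 size factors 6 members were called, 5 higher in replicate 2, with Mir322 and Mir503 no longer called. With TMM, 29.9% of all genes were called higher in replicate 2 and 29% in replicate 1.

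**Figure D3:**
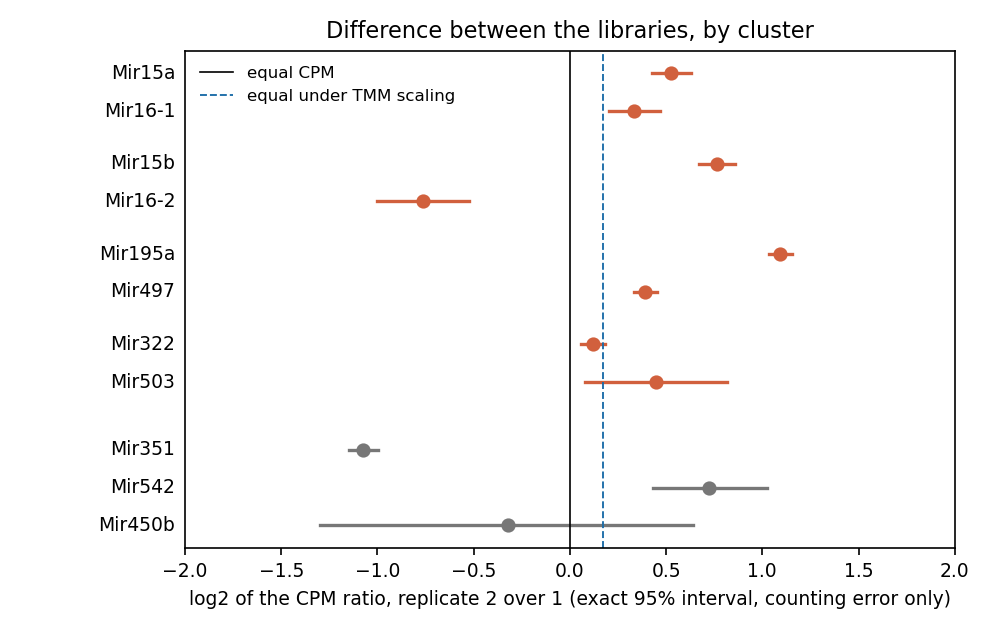
Log2 of the CPM ratio of replicate 2 over replicate 1 for the members, grouped by cluster (orange), and for the further genes of the Mir322 cluster (grey), with exact 95% intervals of the counts. The dashed line marks where genes would lie if equal under TMM scaling: the intervals of Mir322, Mir503 and Mir450b span it. Mir16-2 and Mir351 lie below 0 with their whole intervals, unlike the members they share a cluster with. Mir450b lies below 0 with an interval that spans 0.

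Genes of 1 cluster are cut from a shared transcript, and the ratio between them within a library does not depend on the scaling of that library. Mir15b counts were 3.71 times those of Mir16-2 in replicate 1 and 10.7 times in replicate 2, and the ratio was 2.88-fold higher in replicate 2 (exact 95% interval 2.41 to 3.44). This was the widest change among the 4 pairs. The counts of Mir16-1 and Mir16-2 leave out reads that match both hairpins, among them whole miR-16-5p. The ratios of Mir15b to Mir16-2 and of Mir15a to Mir16-1 thus describe assigned reads and not the full output of the hairpins. Mir195a counts were 0.865 of those of Mir497 in replicate 1 and 1.41 times in replicate 2, a change of 1.63-fold (1.54 to 1.72). The ratio of Mir15a to Mir16-1 was 1.65 in replicate 1 and 1.89 in replicate 2, a change of 1.14-fold (1.02 to 1.28). Mir322 counts were 35.6 times those of Mir503 in replicate 1 and 28.4 times in replicate 2, and the interval of this change, 0.614 to 1.03, included 1. As mean log2 ratios of CPM + 1, the pairs stood at 4.93 ± 0.22 for Mir322 over Mir503, 2.63 ± 1.07 for Mir15b over Mir16-2, 0.82 ± 0.14 for Mir15a over Mir16-1 and 0.14 ± 0.50 for Mir195a over Mir497 (SD, n = 2). In the last pair the spread between the libraries exceeded the mean.

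**Figure D4:**
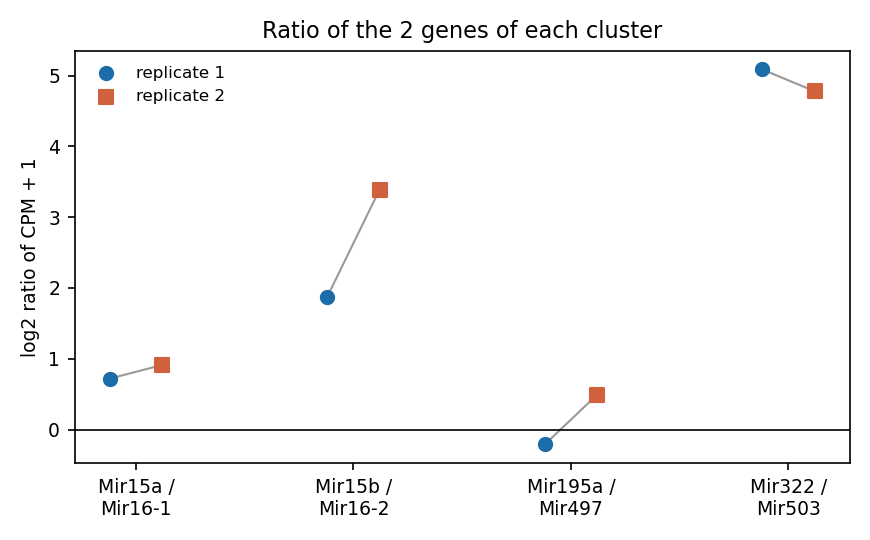
Log2 ratio of CPM + 1 of the genes of each cluster in replicate 1 (circles) and replicate 2 (squares), where 0 means equal levels. Mir322 over Mir503 lies near 5 in both libraries, Mir15b over Mir16-2 moves from 1.88 to 3.39, and Mir195a over Mir497 crosses 0. Mir16-1 and Mir16-2 enter with reads assigned to 1 place only.

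The X-chromosome cluster holds further miRNA genes with other seeds within 10 kb of Mir503 on the same strand. Mir351, the next gene, had 800 CPM in replicate 1 and 380 CPM in replicate 2, a level 2.11-fold higher in replicate 1 (2.00 to 2.22 by the exact 95% interval), where Mir322 was 1.09-fold higher in replicate 2. Mir542 had 28.7 and 47.5 CPM and was 1.65-fold higher in replicate 2 (1.35 to 2.03). Mir450b had 21 and 19 counts and was not called (exact binomial adjusted p = 0.634), and Mir450-1 and Mir450-2 had at most 2 counts in a library. Mir351 and Mir322 were each at 380 CPM or more in both libraries while Mir503, which lies between them, was at or below 27.1 CPM.

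Which reads belong to Mir497 depends on the strand. The gene model Mir497b (ENSMUSG00000070109.2, chromosome 11 from 70234692 to 70234816, minus strand) covers all 84 bases of Mir497 on the opposite strand. Its RefSeq mature sequence is shown with the 3p arm of Mir497, since both come from the same stretch of DNA, where they overlap by 17 bases on opposite strands.
miR-497b: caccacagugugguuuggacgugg
miR-497a-3p: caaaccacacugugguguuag

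On its own strand Mir497 had 3920 counts in replicate 1 and 5829 in replicate 2, and Mir497b had 2 and 0. The column of the other strand mirrors this, with 3920 and 5829 counts at Mir497b and 2 and 0 at Mir497. In the column that ignores strand both are listed at 0, a column that also sets apart reads as ambiguous, which the column of the gene's strand does not. The other 7 members had 0 counts on the other strand in both libraries and the same counts with or without regard to strand. The level of Mir497 can therefore be read only from the column of the gene's strand.

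**Figure D5:**
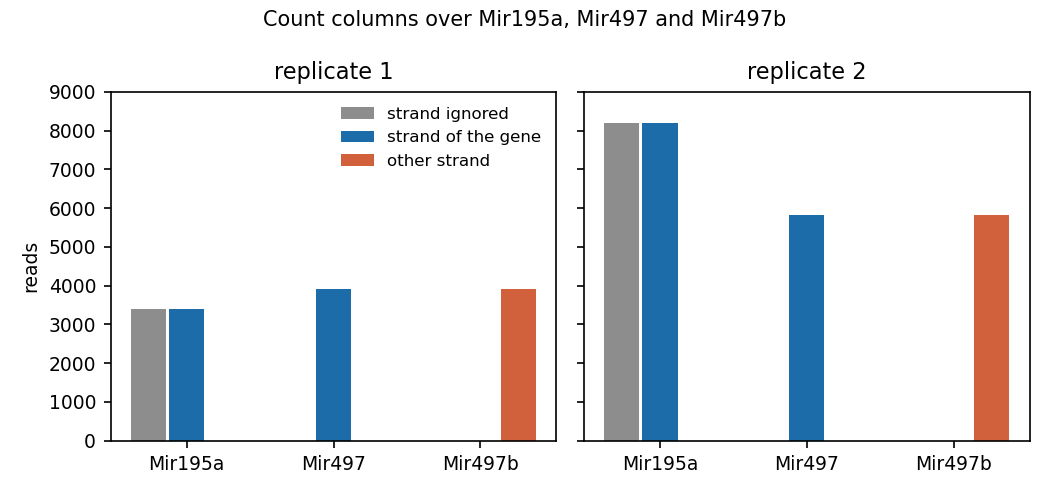
Reads in the 3 deposited count columns (strand ignored, strand of the gene, other strand) for Mir195a, Mir497 and the opposite-strand model Mir497b, in each library. Mir195a has the same count with strand ignored and on its strand, whereas Mir497 has 3920 and 5829 reads on its strand and none with strand ignored, and the same reads appear for Mir497b as other strand.

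The further genes with the seed AGCAGCA were nearly without reads. Mir195b, on chromosome 2, whose mature sequence equals miR-195a-5p in its first 16 bases, had 2 counts in replicate 1 and 0 in replicate 2, against 3390 and 8197 for Mir195a. Mir6342, Mir6353 and Mir6419 had 0 counts in both libraries. Nearly all reads assigned to genes with this seed were thus assigned to the 7 members that carry it.

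The miR-103 and miR-107 genes, which are grouped with the miR-15/16 family because they hold its core bases shifted by 1 position, gave a comparison in which the same duplication occurs. These sequences are shown because they differ at a single base, C22G (the base of miR-107-3p first), and because miR-103-3p is made by both Mir103-1 and Mir103-2.
miR-107-3p: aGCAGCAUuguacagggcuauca
miR-103-3p: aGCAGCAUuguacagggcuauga

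Mir107, with a mature sequence of its own, had 3481 CPM in replicate 1 and 2929 CPM in replicate 2, above the summed family in replicate 1 (2875 CPM) and below it in replicate 2 (4229 CPM). Mir103-1 had 7.33 and 7.32 CPM and Mir103-2 had 31.4 and 28.6 CPM. Mir107 was 1.19-fold higher in replicate 1 (1.16 to 1.21), and neither Mir103 gene was called. Mir103-1 stood below every family member in both libraries, and Mir103-2 below every member other than Mir503. These levels cover only reads assigned to 1 place, and a read of miR-103-3p matches both Mir103 genes. A read that ends before base 22 matches miR-107-3p and miR-103-3p alike. The order is thus one of assigned reads and not of the mature miRNAs.

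The Mir17 type clusters, known for driving division and so for an action opposite to that of the miR-15/16 family, took 0.485% of counts in replicate 1 and 0.457% in replicate 2, against 0.288% and 0.423% for the family. Of their 15 genes 9 were detected and 11 were tested. Of the 11, 4 were called higher in replicate 2, where 39.4% of all genes tested were, and 5 higher in replicate 1, where 20.3% were. Their median log2 ratio was 0.31, although their summed share was lower in replicate 2. In both libraries the family's assigned share was below that of the Mir17 type clusters. Both shares cover only reads assigned to 1 place. In the family this leaves out reads that match both Mir16 hairpins, and in the clusters reads of any product also made elsewhere. Matches outside miRNA hairpins were not searched for any gene. Mir19a, Mir19b-1 and Mir19b-2 had 0 counts in both libraries, and the reason was not tested. How the full shares compare cannot be read from these counts.

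By a rule of the smallest distance in log2(CPM + 1) over the 2 libraries, the genes nearest to Mir195a outside the family were Mir21a (distance 0.14, with 718 and 1436 CPM), Mir3099 (0.54, with 948 and 1335 CPM) and Mir1839 (0.54, with 916 and 1651 CPM). All 3 were higher in replicate 2. With 2 libraries such likeness describes a level and a single ratio.

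Markers of cell types that the tissue can hold also differed between the libraries. Their calls stand against 39.4% of all genes tested called higher in replicate 2 and 20.3% called lower there, and against 83.2% called in either direction among genes whose counts averaged 100 or more. With 2 to 5 genes a list, nothing is read from these counts. The neuron list summed to 27767 and 30795 CPM in replicates 1 and 2, with 1 of 5 genes called higher in replicate 2 and 2 lower, and ran in replicate 1 from 3.09 CPM for Mir124a-1 and 13.7 CPM for Mir9-1 to 14669 CPM for Mir132. Further Mir124a and Mir9 genes lie at other places, and reads aligned to several places are credited to no gene. The levels of Mir124a-1 and Mir9-1 are thus not levels of miR-124 and miR-9 in the tissue. The oligodendrocyte list summed to 5248 and 6667 CPM, with 2 of 2 called higher in replicate 2. The red blood cell list summed to 41.9 and 56.9 CPM, with 2 of 3 called higher in replicate 2. The vessel list summed to 9313 and 8794 CPM, with 1 of 3 called higher in replicate 2 and 2 lower, and the microglia and leukocyte list to 1237 and 992 CPM, with 0 of 3 higher and 2 lower. None of these markers was at 0 in either library. Their part in the differences of the family members was not tested.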

How the data were processed

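Per library, the authors deposited a table of raw counts by gene, on mm10 with GENCODE M21 per the accompanying text file. The name of the aligner or counter is not given in the sources used here. The 3 count columns carry no header and were read from their layout as strand ignored, strand of the gene and other strand. The second was used, and the 4 rows that name no gene were left out of library sizes. Among these rows, reads aligned to several places made up 43.6% and 43.2% of all reads. CPM, mean and SD over 2 libraries, and log2 ratios with a pseudocount of 1 CPM were computed. With 1 group no quasi-likelihood coefficient exists, so the libraries were compared by a 2-sided exact binomial test per gene with Benjamini-Hochberg adjustment (scipy 1.17.1). The test was tried on simulated counts that held sampling noise only, which cannot show how it behaves under the larger spread between these libraries. Count ratios within clusters carry exact conditional intervals. A chi-square of 665 per degree of freedom showed that the libraries differ by more than sampling noise. TMM factors came from edgeR 4.0.16 and size factors from DESeq2 1.42.0 (R 4.3.3). Alternatives covered the scaling, the count minimum, the count column, the pseudocount, the total, the members included and each library alone. Molecular identifiers are not mentioned, and the 95% intervals cover counting error alone. Named were the 8 members, models overlapping them, further genes with their seeds, genes of the same strand within 10 kb, the Mir103 and Mir107 genes and the 3 genes nearest to the highest member. The members and lists were chosen with earlier results of these data known.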

Additional observations from a re-analysis of the deposited data

Results flagged for a closer look

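Mir497b had 3920 counts in replicate 1 and 5829 in replicate 2 on the strand opposite to its own, a column that no comparison of levels used. With no control samples, the limit that a count of 0 allows (3 counts) was the level they were set against. The same numbers stand as counts of Mir497 on its own strand.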

How the results depend on the processing

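The family's mean share of 0.355% became 0.163% with the reads aligned to several places added to the total and 0.778% without the 10 most abundant genes, as the total grew or shrank. It ran from 0.288% to 0.423% when either replicate was left out. Under TMM scaling the share was 0.305% in replicate 1 and 0.398% in replicate 2. It was 0.332% without Mir16-1 and Mir16-2, 0.353% without Mir503, 0.279% without Mir322 and Mir503 and 0.286% in the column that ignores strand. These values lie within 1 SD of the 2 libraries (0.0957). That limit is wide, since even the loss of all Mir497 counts in the column that ignores strand did not cross it. Of the 8 members called, 3 remained when a difference of at least 1.5-fold was also asked for, and 117 of all 472 genes tested met both demands. Under TMM 6 members and 278 of 472 genes were called, and with DESeq2 size factors 6 members and 277 genes. All 8 were called at a mean count of at least 100 (242 of 291 genes) and with no count minimum (284 of 801). In the column that ignores strand 7 members were tested, without Mir497, and 7 were called, as were 253 of 447 genes. Under TMM the log2 ratio of Mir322 changed sign to -0.0495 (exact binomial adjusted p = 0.185), as it did with DESeq2 size factors (-0.0535, adjusted p = 0.149). That of Mir503 kept its sign at 0.26 under both (adjusted p 0.201 and 0.221). The ratio of Mir195a over Mir497 ran from -0.21 to 0.49 when either replicate was left out and had no value in the column that ignores strand. The ranges for the other pairs were 0.72 to 0.91 for Mir15a over Mir16-1, 1.88 to 3.39 for Mir15b over Mir16-2 and 4.78 to 5.09 for Mir322 over Mir503. No paired analysis was possible because there is 1 group. The Mir497 level is listed at 0 in the column that ignores strand. Mir503, with 103 and 159 counts, was the member most limited by depth.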
